A study of Mus musculus with 40 samples.

Results

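The comparison described here asks whether the amygdala of mice colonised at weaning responded to a social encounter in the same way as the amygdala of conventional mice. For each gene it takes the change after social interaction in the colonised mice and subtracts the change in the conventional mice, on a log2 scale, so that a positive value means a more positive response in the colonised mice. It used 24 of the 40 libraries of the series and 16111 of the 43629 genes in the count table, those with enough reads to be fitted. The mice were male Swiss Webster animals of 10 weeks, and RNA was sequenced from the hand-dissected left amygdala after removal of ribosomal RNA. Conventionally raised mice (CON) gave 4 naïve libraries and, after social interaction, 8 libraries (CON-SI). Mice born germ-free, taken out of the germ-free unit after weaning and housed on bedding used by CON mice (exGF) gave 4 naïve and 8 social interaction libraries (exGF and exGF-SI). Social interaction was a three-chamber test 1 hr before the tissue was taken, in which the mouse met an unfamiliar male and an object. The naïve mice are not described as having been handled this way, so the response holds habituation, handling and the object as well as the encounter. Each naïve library was a pool of several animals and each social interaction library came from a single animal, in CON and exGF alike. The exGF mice descended from germ-free breeding pairs and differ from CON in parents as well as in early microbial status, and these cannot be told apart here.

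Sensory experience makes neurons transcribe a wave of immediate early genes within minutes, through calcium entry, the MAPK cascade and the factors CREB and SRF. The first products are transcription factors such as FOS and EGR1, and they are followed by effectors that act at the synapse, such as ARC and BDNF. Microglia, whose maturation is known to depend on the microbiota, supply most of the brain's C1q, the protein that starts the classical complement cascade. The amygdala is a group of nuclei in which social and threat-related information is given emotional value.

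Library totals ran from 10271854 to 17465387 counts. Of 12 markers of amygdala nuclei, 11 passed the filter on low counts, among them Rspo2 at 25.8 CPM (counts scaled to the size of the library) and Meis2 at 112 CPM. Prkcd, Crh, Nts and Tac2 were lower, between 1.89 and 5.72 CPM. Of markers of neighbouring regions, 11 of 12 for striatum, 7 of 8 for cortex and 6 of 12 for hypothalamus and thalamus passed. Passing therefore does not set the amygdala apart, and Rorb and Fezf2 are on the amygdala and the cortex list alike. In 5 of the 24 libraries the gene model Gm42418, which overlaps ribosomal RNA, took over 5% of the counts. Its share was 32.3% in CON-P1 and 18.5% in CON-P3. Among colonised mice it reached 14.3% (exGF-P1), 6.23% (exGF-P2) and 9.25% (exGF-S7), so that 4 of the 8 naïve libraries are affected. Markers of the choroid plexus, the secretory tissue of the ventricles, stood high in 3 exGF-SI libraries. Their summed level was 1383, 1350 and 2154 CPM in exGF-S4, exGF-S7 and exGF-S9, against 125 to 257 CPM in the other 5 exGF-SI libraries. It lay between 127 and 253 CPM in CON-SI and between 146 and 195 CPM in exGF, and in CON it reached 513 CPM in CON-P2. The plot of both measures by library shows that these 2 kinds of library overlap only in exGF-S7.

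**Figure D1:**
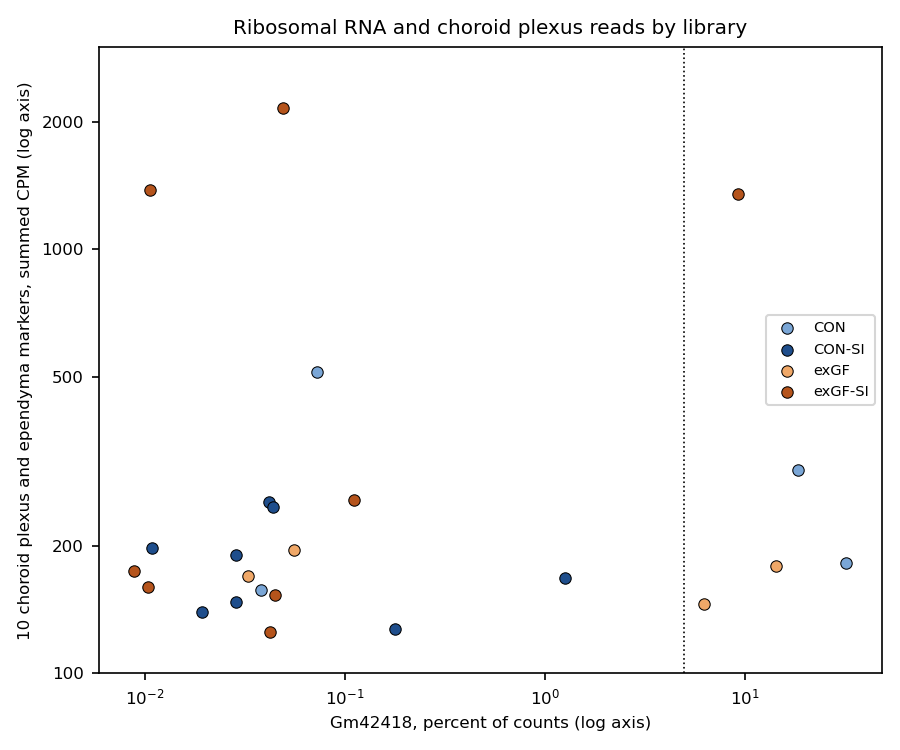
Each point is 1 of the 24 libraries, with the percent of counts on Gm42418 on the horizontal log axis and the summed CPM of 10 choroid plexus and ependyma markers on the vertical log axis, coloured by group. The dotted line marks 5%; 2 CON, 2 exGF and 1 exGF-SI library lie to its right, and 3 exGF-SI libraries lie at 1350 CPM or above.

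No gene differed between the exGF and the CON response (edgeR quasi-likelihood test, adjusted p at most 0.1). The count was 0 of 16111, or 0%, and the smallest adjusted p was 0.129, for Kcnj16. At an unadjusted p below 0.05 there were 939 genes, 5.83% of those tested, 463 with a positive and 476 with a negative difference. DESeq2 called 1 gene and limma with library quality weights called 1, and both times it was Kcnj16. The median difference over all genes was 0.01 on the log2 scale and the median standard error 0.20. A p that misses the threshold does not show that the responses were alike, and the intervals say how far they can be apart. The 95% interval of the difference had a median half-width of 0.40 and lay wholly within −1 and 1 for 75.5% of the genes. Among the 14126 genes with a mean of at least 1 CPM this share was 85.5%.

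The responses themselves were well populated in the same fit. In CON, 969 genes (6.01%) changed after social interaction, 627 of them upwards (3.89%) and 342 downwards (2.12%). In exGF, 1401 genes (8.7%) changed, 843 upwards (5.23%) and 558 downwards (3.46%). The CON and the exGF response share no library, so genes picked in one can be read in the other. Of the 627 genes that rose in CON, 586 (93.5%) had a positive change in exGF and 276 also rose there. Of the 342 genes that fell in CON, 309 (90.4%) had a negative change in exGF and 79 also fell. In all, 355 genes passed in both responses in the same direction, which is 36.6% of the CON genes and 25.3% of the exGF genes, and 0 passed in opposite directions. The shared count fell to 181 without exGF-P4, 194 without exGF-P2, 199 without CON-P1 and 203 without CON-P2, and to 221 with no filter on low counts. Under limma, and in the runs without CON-P2 or without CON-S7, 1 gene passed in opposite directions each time. Read the other way, 775 of the 843 genes that rose in exGF (91.9%) had a positive change in CON, and 492 of the 558 that fell (88.2%) a negative one. Over all genes the sign was shared by 67.4%.

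The sizes differed according to where the genes were picked. Genes that rose in CON had a median log2 change of 0.37 there and of 0.25 in exGF. Genes that rose in exGF had a median of 0.33 there and of 0.19 in CON. The fallen genes followed the same order, from −0.52 in CON to −0.26 in exGF for those picked in CON, and from −0.40 in exGF to −0.17 in CON for those picked in exGF. In both directions of reading the change was therefore smaller in the group that had not been used to pick the genes. Across all 16111 genes Pearson's r between the log2 changes was 0.35 and Spearman's rho 0.45, where genes are not independent replicates and all points share the same 24 libraries. With the 5 Gm42418-rich libraries left out, the interaction count stayed at 0, with 115 genes called in CON and 491 in exGF. Of these, 62 passed in both responses in the same direction and 0 in opposite directions. The naïve libraries kept in that run are only CON-P2 and CON-P4 in CON, and exGF-P3 and exGF-P4 in exGF. Lower counts of called genes there, also within the lists below, cannot be told apart from this loss of libraries.

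**Figure D2:**
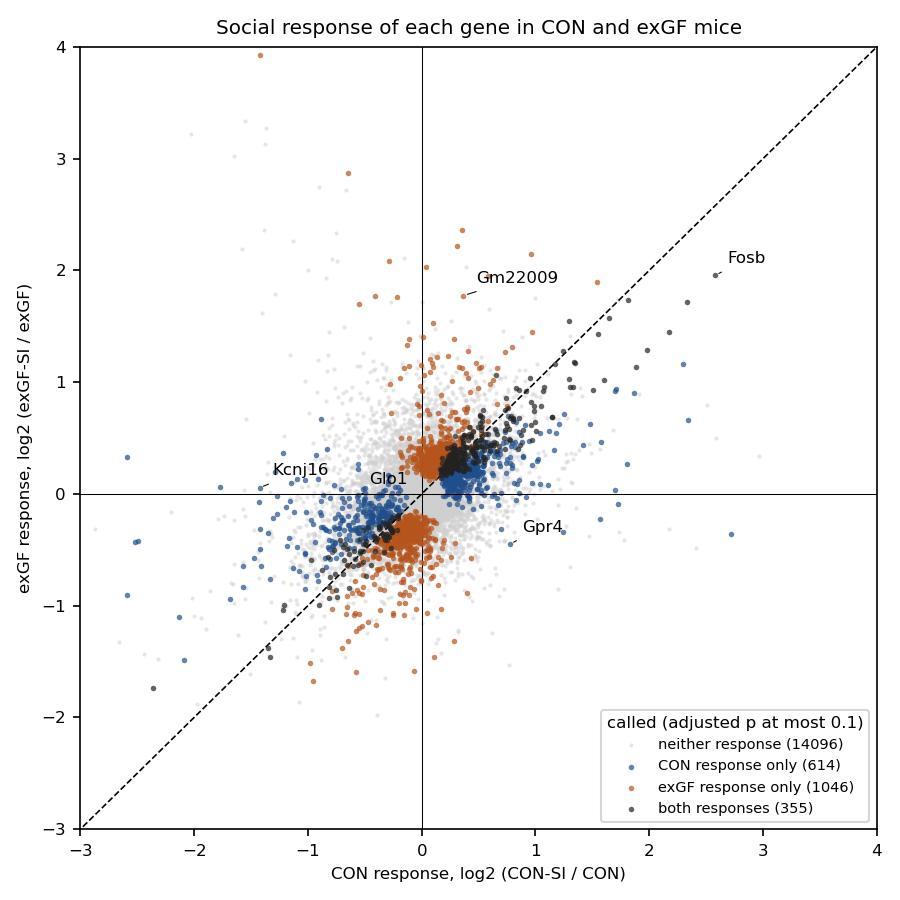
Each point is 1 gene, with its log2 change after social interaction in CON on the horizontal axis and in exGF on the vertical axis, coloured by whether it passed at an adjusted p of 0.1 in neither (14096), CON alone (614), exGF alone (1046) or both (355). The dashed line marks equal responses; the 355 genes called in both lie towards the upper right and the lower left, and 16 genes fall outside the axes.

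The genes nearest to a difference fell into several patterns, and the 8 with the smallest p in each direction (adjusted p from 0.129 to 0.719) are described although none passed. In 11 of these 16 genes the estimated responses had opposite signs, while over all genes the sign was shared by 67.4%. Picking genes by the p of the difference favours opposite signs, so this count is no separate result. The first pattern was a high level in naïve CON libraries alone. Kcnj16 (ENSMUSG00000051497, chr11:110968033-111027968, GRCm38), which encodes the inwardly rectifying potassium channel subunit Kir5.1, was at 18.9, 22.4, 22.0 and 11.6 CPM in the 4 CON libraries. It ranged from 5.40 to 10.6 CPM in CON-SI, with a median of 6.55. In exGF it was at 7.04, 7.64, 8.78 and 6.86 CPM, and in exGF-SI it ran from 5.35 to 13.0 CPM with a median of 7.67. All 4 CON libraries stood above all CON-SI libraries, while exGF and exGF-SI overlapped. Kcnj16 fell by 1.43 on the log2 scale in CON (edgeR adjusted p = 2.6e-05) and its estimate in exGF was 0.05 (adjusted p = 0.92). The difference was 1.48, with a 95% interval from 0.90 to 2.06. Over the alternatives the adjusted p of Kcnj16 ran from 0.013 under DESeq2 to 0.99997 with the 5 libraries rich in Gm42418 left out, where the estimate was 1.35. It passed without CON-P4 (adjusted p = 0.014), CON-S2 (0.020), exGF-S7 (0.058) or exGF-S8 (0.079). It was also lower in naïve exGF than in naïve CON by the same test (log2 −1.30, adjusted p = 0.019), in a comparison where 9 genes (0.0559%) passed.

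Glo1 (chr17:30584936-30626871), which encodes glyoxalase I, the enzyme that clears methylglyoxal, had the same arrangement. It was at 79.2, 80.4, 77.5 and 63.4 CPM in CON, and the 8 CON-SI libraries ran from 42.3 to 73.7 CPM with a median of 47.7. In exGF it was at 54.2, 52.1, 51.6 and 49.5 CPM, and exGF-SI ran from 42.5 to 54.9 CPM with a median of 52.1. Only 1 CON-SI library, CON-S5, reached into the range of the naïve CON libraries. Glo1 fell by 0.57 in CON (edgeR adjusted p = 0.00025), its exGF estimate was −0.02, and the difference of 0.55 had an interval from 0.28 to 0.81. Without CON-S5 the difference was 0.64 and Glo1 passed, with an adjusted p of 0.0026, as the only gene called in that run. Naïve exGF was lower than naïve CON here too (log2 −0.53, edgeR adjusted p = 0.036). Glo1 overlaps Dnah8 on the opposite strand, so that reads of both cannot be told apart there. Uvssa, a factor of transcription-coupled DNA repair, was at 15.7, 12.6, 13.9 and 14.5 CPM in CON and between 8.61 and 10.5 CPM in CON-SI. It was at 9.90, 10.3, 11.9 and 12.6 CPM in exGF and between 10.3 and 12.5 CPM in exGF-SI. It fell by 0.56 in CON with no overlap between the groups, and its difference was 0.55 (interval 0.27 to 0.83). The non-coding transcript 2810403D21Rik, at 2.07 CPM or less in every library, had a difference of 1.56 (0.73 to 2.39). It was not high in CON alone: exGF-SI ran from 0.708 to 1.66 CPM, into the CON range of 1.06 to 2.07 CPM. Its exGF estimate was 0.67 (edgeR adjusted p = 0.20). It overlaps Gm14870 on its own strand and Brwd3 on the opposite strand, so that their reads cannot be told apart there.

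**Figure D3:**
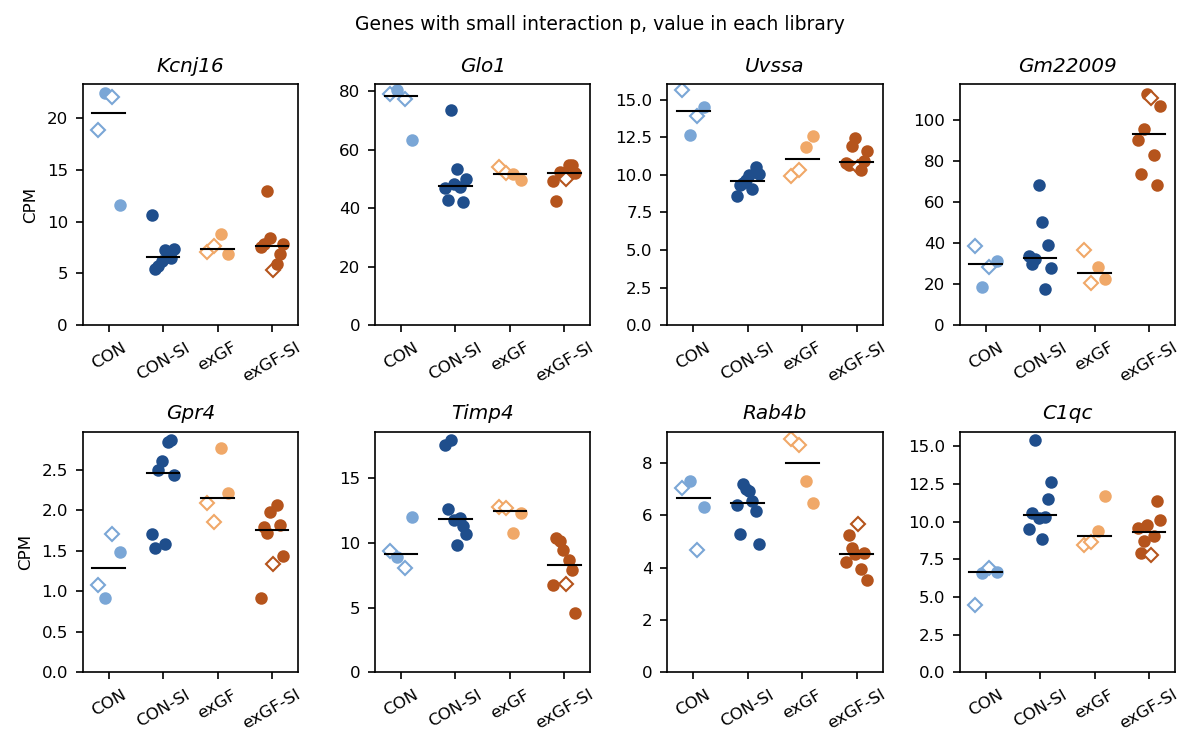
Each panel is 1 gene, with CPM on the vertical axis from 0 and 1 point per library for CON, CON-SI, exGF and exGF-SI; bars are medians and open diamonds are the 5 libraries in which Gm42418 takes over 5% of the counts. Kcnj16, Glo1 and Uvssa stand highest in CON, Gm22009 in exGF-SI, and C1qc lowest in CON.

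The second pattern was a level that set exGF-SI apart. Gm22009, a gene model annotated as a small Cajal body RNA at chr3:69085105-69085447 within Kpna4 on the same strand, was at 38.5, 18.7, 28.5 and 31.2 CPM in CON. It ran from 17.5 to 68.3 CPM in CON-SI, with a median of 32.9. In exGF it was at 36.5, 20.6, 28.6 and 22.7 CPM, against 68.2 to 112 CPM in exGF-SI, with a median of 93.0. All exGF-SI libraries stood above all exGF libraries, and only CON-S6 among the other groups reached the lowest of them. Gm22009 rose by 1.77 in exGF (edgeR adjusted p = 9.1e-05), its CON estimate was 0.37 (adjusted p = 0.47), and the difference was 1.41 with an interval from 0.70 to 2.12. It was higher in exGF-SI than in CON-SI (log2 1.31, adjusted p = 0.00017), in a comparison where 522 genes (3.24%) passed. Reads of Gm22009 and of its host cannot be fully told apart.

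Akirin2, a nuclear protein that brings proteasomes into the nucleus, followed it on a smaller scale and by its medians alone. CON-P1 and CON-S7 reached its exGF-SI range of 29.0 to 37.4 CPM. Akirin2 was at 33.3, 24.2, 26.4 and 28.0 CPM in CON and 26.3, 26.3, 28.6 and 22.7 CPM in exGF, with medians of 24.6 CPM in CON-SI and 33.6 CPM in exGF-SI. It rose by 0.38 in exGF (edgeR adjusted p = 0.041), and the difference was 0.57 (0.25 to 0.89). Gtf2h2, a subunit of the transcription factor TFIIH, rose by 0.35 in exGF and had a difference of 0.54 (0.25 to 0.83). Its median was highest in exGF-SI, at 15.2 CPM against 13.4 in CON, 12.1 in CON-SI and 11.5 in exGF. The exGF-SI range of 11.3 to 16.7 CPM overlapped each of the other groups. Phf14, a chromatin protein with PHD fingers, rose by 0.23 in exGF, with an estimate of −0.19 in CON and a difference of 0.42 (0.22 to 0.62). Its exGF-SI level was not set apart: the medians were 74.0 CPM in CON, 65.0 in CON-SI, 62.2 in exGF and 74.6 in exGF-SI.

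Of the genes with a negative difference, Rab4b and Timp4 were lower in exGF-SI than in every other group by their medians. Rab4b, a small GTPase of the endosomal recycling route, was at 7.02, 7.31, 4.68 and 6.31 CPM in CON and had a median of 6.45 CPM in CON-SI. In exGF it was at 8.91, 8.68, 7.32 and 6.46 CPM, all above the exGF-SI range of 3.53 to 5.67 CPM. Rab4b fell by 0.77 in exGF (edgeR adjusted p = 0.0018), with an estimate of 0.00 in CON and a difference of −0.77 (−1.19 to −0.34). Timp4, an inhibitor of matrix metalloproteinases, was at 12.8, 12.7, 10.8 and 12.3 CPM in exGF and between 4.63 and 10.4 CPM in exGF-SI, again without overlap. In CON it was at 9.36, 8.91, 8.10 and 12.0 CPM, within or below the CON-SI range of 9.88 to 17.9 CPM. It fell by 0.57 in exGF (edgeR adjusted p = 0.06), its CON estimate was 0.43 (adjusted p = 0.21) and the difference was −0.999 (−1.53 to −0.47). Timp4 lies on the strand opposite to Syn2, and as the counting ignored strand, reads of Syn2 cannot be told apart from its own where they overlap.

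Gpr4, a proton-sensing receptor of endothelial cells, moved in CON. It was at 1.08, 0.914, 1.71 and 1.49 CPM in CON and 1.53 to 2.87 CPM in CON-SI, and at 2.09, 1.85, 2.77 and 2.21 CPM in exGF and 0.921 to 2.06 CPM in exGF-SI. It rose by 0.77 in CON (edgeR adjusted p = 0.055), its exGF estimate was −0.45 (adjusted p = 0.24) and the difference was −1.22 (−1.87 to −0.58). Tmem132a, a transmembrane protein, rose by 0.52 in CON and had a difference of −0.49 (−0.77 to −0.21). Exosc4, a subunit of the RNA exosome, fell by 0.44 in exGF and had a difference of −0.73 (−1.14 to −0.32). Mrpl58, a peptidyl-tRNA hydrolase of the mitochondrial ribosome, fell by 0.26 in exGF and had a difference of −0.39 (−0.61 to −0.17). Tmem132a, Exosc4 and Mrpl58 each overlap a gene on the other strand, and part of their reads may be those of Slc15a3, Oplah and Ict1os. The remaining pair, Gm10800 and Gm26870, are gene models whose levels were uneven within groups. They were highest in CON-S3, at 1058 and 65.9 CPM, while their CON-SI medians were 1.84 and 0.652 CPM. Their differences were −10.6 and −9.19, and without CON-S3 they were −5.42 and −5.82.

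Immediate early genes were among those that rose in both groups. The list of 26 transcription factors had 12 members that rose in CON and 9 in exGF, where 1, Ier2, fell, against 3.89% of all genes that rose in CON and 5.23% in exGF. Of the 32 activity-induced effectors, 17 rose in CON and 11 in exGF, where Sst, which encodes somatostatin, fell. No member differed between the responses after adjustment. An unadjusted p below 0.05 was found in 1 of 26 (3.85%) and 2 of 32 (6.25%), against 5.83% of all genes. The median difference was −0.22 for the factors and −0.21 for the effectors, against 0.01 over all genes, with 6 of 26 and 7 of 32 estimates positive. Phosphatases and other inhibitors of the MAPK cascade, which end the signal, rose in 5 of 20 cases in CON and 3 in exGF, with a median difference of −0.20. That median was −0.12 without exGF-P2 and −0.25 without exGF-P3. It was −0.03 with the 5 Gm42418-rich libraries left out, where 2 rose in CON and 2 in exGF. In that run 115 of 16635 genes passed in CON and 491 in exGF, in either direction. The MAPK kinases and adaptors themselves had a median difference of −0.01 over 60 genes. Of these, 7 (11.7%) had an unadjusted p below 0.05, against 5.83% of all genes.

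Fosb, a partner of JUN proteins in AP-1, was at 5.22, 4.80, 4.59 and 5.04 CPM in CON and from 17.9 to 46.1 CPM in CON-SI. It was at 12.9, 12.6, 6.62 and 5.27 CPM in exGF and from 24.5 to 46.5 CPM in exGF-SI. Fosb rose by 2.58 in CON and 1.96 in exGF (edgeR adjusted p = 9.1e-08 and 8.8e-06), with no overlap between naïve and social interaction libraries in either. Its difference was −0.62, with an interval from −1.33 to 0.08. The naïve levels in exGF were split, with exGF-P1 and exGF-P2 high and exGF-P3 and exGF-P4 near the CON level. The same 2 libraries, both rich in Gm42418, were the highest of the naïve exGF libraries for Arc, a postsynaptic regulator of AMPA receptors. Arc was at 254, 139, 60.1 and 81.9 CPM in exGF, and at 45.9, 64.0, 73.4 and 68.7 CPM in CON. The Gm42418-rich libraries of CON, CON-P1 and CON-P3, did not show this split. Among the naïve CON libraries CON-P1 was the lowest for Arc and CON-P3 the lowest for Fosb. The Arc difference was −0.97 (−2.27 to 0.34), after a rise of 1.86 in CON and an estimate of 0.90 in exGF (edgeR adjusted p = 0.28).

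Egr1 showed the split as well, at 197, 176, 103 and 80.0 CPM in exGF against 64.6, 75.7, 78.8 and 60.2 CPM in CON. Its difference was −0.64 (−1.33 to 0.06). Egr3 and Egr4, other zinc-finger factors of the family, rose in CON and had differences of −0.55 (−1.40 to 0.29) and −0.47 (−1.16 to 0.21). With the 5 Gm42418-rich libraries left out the median difference was 0.05 for the factors and 0.01 for the effectors, and 15 of 26 and 17 of 32 estimates were positive. In that run Fosb was at 0.05 and Arc at 0.05, and 3 factors rose in CON and 8 in exGF, as did 6 effectors in CON and 10 in exGF. Over all 16635 genes of that run, 115 passed in CON and 491 in exGF, in either direction. Leaving out exGF-P1 alone brought the median of the factors to −0.05, and leaving out exGF-P3 brought it to −0.36. The part of ribosomal RNA content in these differences was not tested beyond these runs. With the level of Gm42418 as a covariate in the fit the median of the factors was −0.21.

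Fos, the best-known marker of recent neuronal activity, was at 7.38, 14.3, 12.0 and 7.24 CPM in CON and 24.9, 18.2, 8.24 and 11.4 CPM in exGF. It rose by 1.34 in CON and 1.18 in exGF (edgeR adjusted p = 0.029 and 0.038), and its difference was −0.16 with an interval from −1.13 to 0.81. Bdnf, the neurotrophin gene, rose by 0.92 in both. Its median went from 34.4 to 65.2 CPM in CON and from 39.1 to 70.2 CPM in exGF, and the difference was 0.00 with an interval from −0.44 to 0.44. Ier5 did not pass in either response, and its difference was −0.49 (−1.47 to 0.49). Among the effectors Dnajb5, a co-chaperone, rose by 0.89 in CON with an exGF estimate of 0.33, and had a difference of −0.56 (−0.99 to −0.14). Sik1, a kinase that restrains CREB targets, rose in both, with a difference of −0.45 (−0.97 to 0.08). Dusp6, the phosphatase of ERK, rose in CON, and its difference was −0.44 (−1.04 to 0.16).

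**Figure D4:**
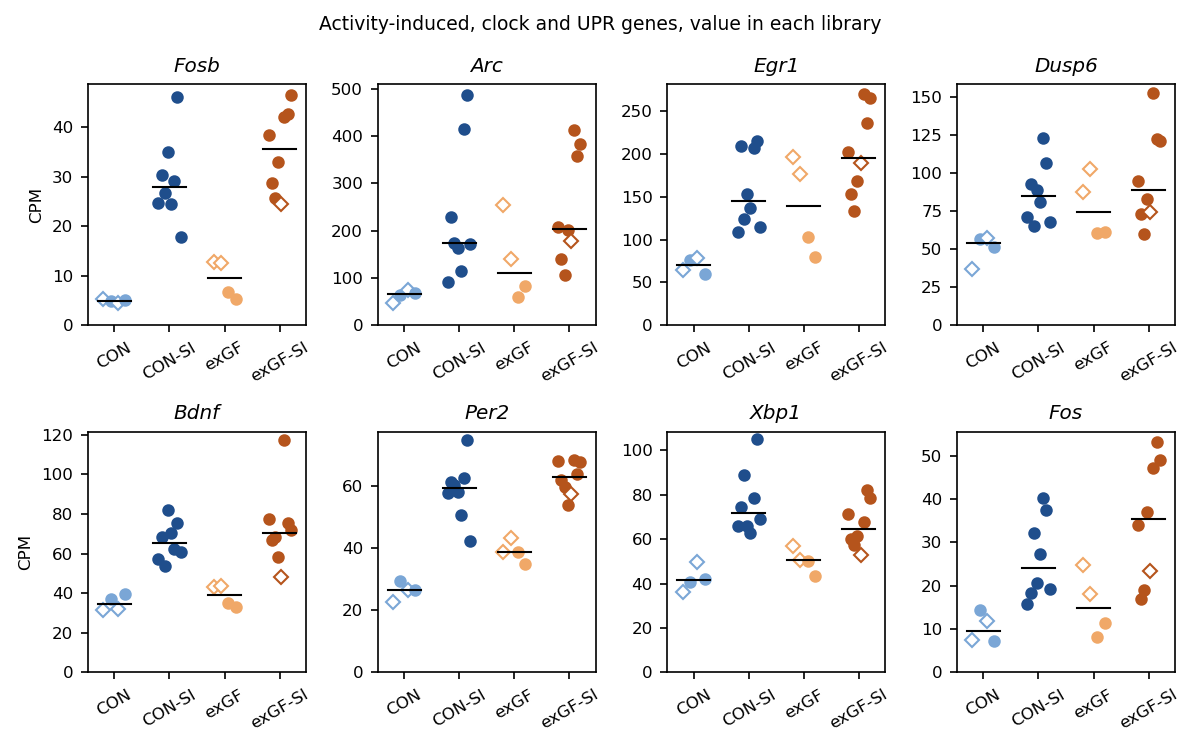
Each panel is 1 gene, with CPM on the vertical axis from 0 and 1 point per library for CON, CON-SI, exGF and exGF-SI; bars are medians and open diamonds are the 5 libraries in which Gm42418 takes over 5% of the counts. In exGF, both open diamonds stand above both filled points in every panel, though only narrowly for Per2 and Xbp1. In CON they do so in no panel.

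Of 35 cytosolic chaperones and co-chaperones, 11 rose in CON and 13 in exGF and 0 fell, against 3.89% and 5.23% of all genes that rose. Their median difference was 0.07, and it lay between 0.0039 and 0.10 with 1 library left out. These counts were 3 in CON and 5 in exGF with the 5 Gm42418-rich libraries left out. Of all 16635 genes, 115 in CON and 491 in exGF then passed, in either direction. Hspa8, the constitutive HSP70, went from 1284, 1133, 1125 and 1146 CPM in CON to 1423 to 1733 CPM in CON-SI. In exGF it went from 1278, 1045, 1222 and 1229 CPM to 1516 to 2073 CPM. Neither pair of groups overlapped, the rises were 0.42 and 0.60, and the difference was 0.18 with an interval from −0.03 to 0.40. Hspa4, its nucleotide exchange factor, rose by 0.43 in exGF with an estimate of 0.21 in CON and a difference of 0.22 (−0.02 to 0.46). The co-chaperone Dnajb6 passed in neither response, and its difference was 0.00 (−0.34 to 0.33).

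Of 28 genes of the unfolded protein response in the endoplasmic reticulum, 14 rose in CON and 12 in exGF, with a median difference of −0.03. Of all genes, 3.89% rose in CON and 5.23% in exGF. The order of the counts of this list turned with the 5 Gm42418-rich libraries left out, when 6 rose in CON and 9 in exGF. The counts over all genes fell in that run too, to 115 of 16635 in CON and 491 in exGF, in either direction. Xbp1, the spliced transcription factor of the unfolded protein response, rose by 0.85 in CON and 0.40 in exGF (edgeR adjusted p = 0.00011 and 0.054). Its difference was −0.44 (−0.80 to −0.09). Herpud1, which serves the degradation of misfolded proteins, rose by 0.80 in CON with an exGF estimate of 0.23, and had a difference of −0.57 (−1.002 to −0.14). Sdf2l1 rose in both, with a difference of −0.58 (−1.20 to 0.05). Glucocorticoid-induced genes rose in 9 of 27 cases in CON and 8 in exGF, and 0 of 27 had an unadjusted p below 0.05 for the difference, whose median was −0.07. When the 5 Gm42418-rich libraries were left out, 2 of them rose in CON and 2 in exGF, and with 1 library left out the median lay between −0.18 and −0.032.

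Of 21 circadian clock genes, 8 rose in CON and 4 in exGF, where 1, Dbp, fell. Of all genes 3.89% rose in CON and 5.23% in exGF, where 3.46% fell. With the 5 Gm42418-rich libraries left out, 1 clock gene rose in CON and 2 in exGF. All genes called in that run, in either direction, numbered 115 of 16635 in CON and 491 in exGF. The clock genes had a median difference of −0.14, or −0.06 without CON-P4 and −0.19 without CON-P1, and 2 of 21 estimates were positive. With the 5 Gm42418-rich libraries left out this median was −0.14 and 4 of 21 were positive. Per2, a repressor of the clock and an early gene, was at 22.7, 29.3, 26.6 and 26.5 CPM in CON and 38.7, 43.3, 38.7 and 35.0 CPM in exGF. All 4 naïve exGF libraries stood above all 4 naïve CON libraries, while the SI medians were 59.3 and 62.9 CPM. Per2 rose by 1.15 in CON and 0.69 in exGF, and the difference was −0.46 (−0.82 to −0.09). Bhlhe40, another repressor, rose by 0.64 in CON and had a difference of −0.64 (−1.17 to −0.11). Per1 rose by 0.69 in CON and had a difference of −0.33 (−0.79 to 0.12).

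Of 16 complement genes tested, 4 rose in CON, C1qa, C1qb, C1qc and Cfp, against 3.89% of all genes. In exGF 0 rose and Serping1, the inhibitor of C1, fell, against 5.23% and 3.46% of all genes. No member passed the test of the difference. The median difference was −0.24, with 3 of 16 estimates positive, and 2 of 16 (12.5%) had an unadjusted p below 0.05, against 5.83% of all genes. That median was −0.09 without CON-S12, −0.12 without exGF-P4 and −0.33 without exGF-P3. C1qc, a chain of C1q, was at 4.50, 6.63, 6.93 and 6.67 CPM in CON and from 8.87 to 15.4 CPM in CON-SI, without overlap. It was at 8.47, 8.68, 9.40 and 11.7 CPM in exGF and from 7.79 to 11.3 CPM in exGF-SI, where the groups overlapped. C1qc rose by 0.82 in CON (edgeR adjusted p = 0.009), its exGF estimate was −0.05 (adjusted p = 0.91), and the difference was −0.88 (−1.39 to −0.36). The differences of C1qa and C1qb were −0.40 (−0.80 to −0.01) and −0.45 (−0.91 to 0.01). With the 5 Gm42418-rich libraries left out these were −0.91, −0.48 and −0.69 for C1qc, C1qa and C1qb, and 0 complement genes passed in CON. Over all genes 115 of 16635 passed in CON in that run, in either direction. Of 10 microglial markers, 0 rose in CON and 2 fell in exGF, where 3.46% of all genes fell. The summed level of these markers ran from 205 to 247 CPM in CON, 200 to 234 in CON-SI, 198 to 241 in exGF and 183 to 221 in exGF-SI. In this tissue fewer microglia and less RNA per microglial cell cannot be told apart.

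Most regulators of RNA splicing had positive differences, none of which passed. Of 17 SR proteins, which bind exons and recruit the spliceosome, 3 rose in CON and 7 in exGF, against 3.89% and 5.23% of all genes. Of the 17, 15 had a positive difference, with a median of 0.10. The median was 0.17 without exGF-P1, 0.16 without exGF-P2 and 0.07 without CON-S10. All 3 that rose in CON, Srsf3, Srsf7 and Tra2a, also rose in exGF. An unadjusted p below 0.05 was found in 4 of 17 (23.5%), against 5.83% of all genes. Srsf1 was at 10.8, 10.9, 13.5 and 14.5 CPM in CON and 11.8, 10.5, 12.0 and 11.9 CPM in exGF. It ran from 13.0 to 19.1 CPM in CON-SI and from 15.0 to 21.3 CPM in exGF-SI, so that the exGF groups did not overlap and the CON groups did. It rose by 0.59 in exGF (edgeR adjusted p = 0.0019) with a CON estimate of 0.25 (adjusted p = 0.21), and the difference was 0.34 (0.02 to 0.65). Srsf11 rose by 0.38 in exGF and had a difference of 0.34 (0.01 to 0.67). Srsf9 and Srrm1 passed in neither response, with differences of 0.30 (0.01 to 0.60) and 0.39 (0.00 to 0.78).

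The hnRNP proteins, which bind nascent transcripts and often oppose SR proteins, had 1 gene that rose in CON and 1 that rose and 1 that fell in exGF. Their median difference was 0.19 with 24 of 27 positive, and 1 of 27 (3.70%) had an unadjusted p below 0.05, against 5.83% of all genes. Without CON-P1 the median was 0.06, and without CON-S2 it was 0.23. Hnrnpu rose by 0.41 in exGF, and its difference was 0.25 (−0.03 to 0.53). Over 100 core spliceosome proteins, 6 rose in CON and 10 in exGF, against 3.89% and 5.23% of all genes that rose. Of their differences 62 were positive and the median was 0.02, between 0.01 and 0.05 with 1 library left out. An unadjusted p below 0.05 was found in 9 (9%), against 5.83% of all genes. Snrnp27, a protein of the tri-snRNP, had a negative difference of −0.40 (−0.68 to −0.11). With the 5 Gm42418-rich libraries left out the medians were 0.28 for SR proteins, 0.16 for hnRNP proteins and −0.01 for the core spliceosome, of which 48 were then positive. The cold-inducible RNA-binding protein gene Cirbp had a difference of 0.04 (−0.35 to 0.43).

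Falls in exGF were found among genes of the respiratory chain, the ribosome and the nucleosome. Of 76 nuclear genes of the respiratory chain, 13 fell in exGF and 0 in CON, against 3.46% and 2.12% of all genes. The median difference was −0.15, and 10 (13.2%) had an unadjusted p below 0.05, against 5.83% of all genes. That median was −0.24 without CON-P2, −0.10 without CON-P3 and −0.09 without exGF-P2. Uqcrc1, a core protein of complex III, was at 136, 129.6, 106 and 165 CPM in CON and had a median of 149 CPM in CON-SI. In exGF it was at 132, 179, 139 and 156 CPM, all above the exGF-SI range of 90.3 to 128 CPM. It fell by 0.48 in exGF (edgeR adjusted p = 0.054), with a difference of −0.66 (−1.10 to −0.23). Ndufs3, of complex I, fell by 0.39 and had a difference of −0.44 (−0.74 to −0.14), and Cox7c, of complex IV, fell by 0.63 and had one of −0.75 (−1.28 to −0.22).

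Of 80 cytosolic ribosomal protein genes, 10 fell in exGF and 0 in CON, while 4 rose in each, against 3.46% and 2.12% of all genes that fell. The median difference was −0.11, or −0.20 without CON-P2 and −0.07 without CON-P1. Rpl35 was at 74.3, 129, 105 and 100.4 CPM in CON and 101, 140.3, 109 and 101 CPM in exGF. It ran from 88.4 to 111 CPM in CON-SI and from 67.5 to 93.5 CPM in exGF-SI, again lower than every exGF library. It fell by 0.59 in exGF and had a difference of −0.53 (−0.83 to −0.23). Rps29 and Rpl36 fell by 0.90 and 0.71 in exGF, with differences of −0.71 (−1.15 to −0.27) and −0.61 (−1.04 to −0.18). The replication-dependent histones had the lowest median of these lists, −0.47 over 42 genes, with 5 that fell in exGF and 0 in CON, against the same shares. An unadjusted p below 0.05 was found in 7 (16.7%), against 5.83% of all genes. Hist3h2ba was at 12.0, 11.6, 10.0 and 9.63 CPM in exGF and from 3.11 to 6.83 CPM in exGF-SI, and had a difference of −1.12 (−1.84 to −0.39). With the 5 Gm42418-rich libraries left out the medians were −0.01 for the respiratory chain, −0.06 for ribosomal proteins and −0.25 for histones. In that run 3, 3 and 0 of their members fell in exGF, where 491 of all 16635 genes passed in either direction.

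**Figure D5:**
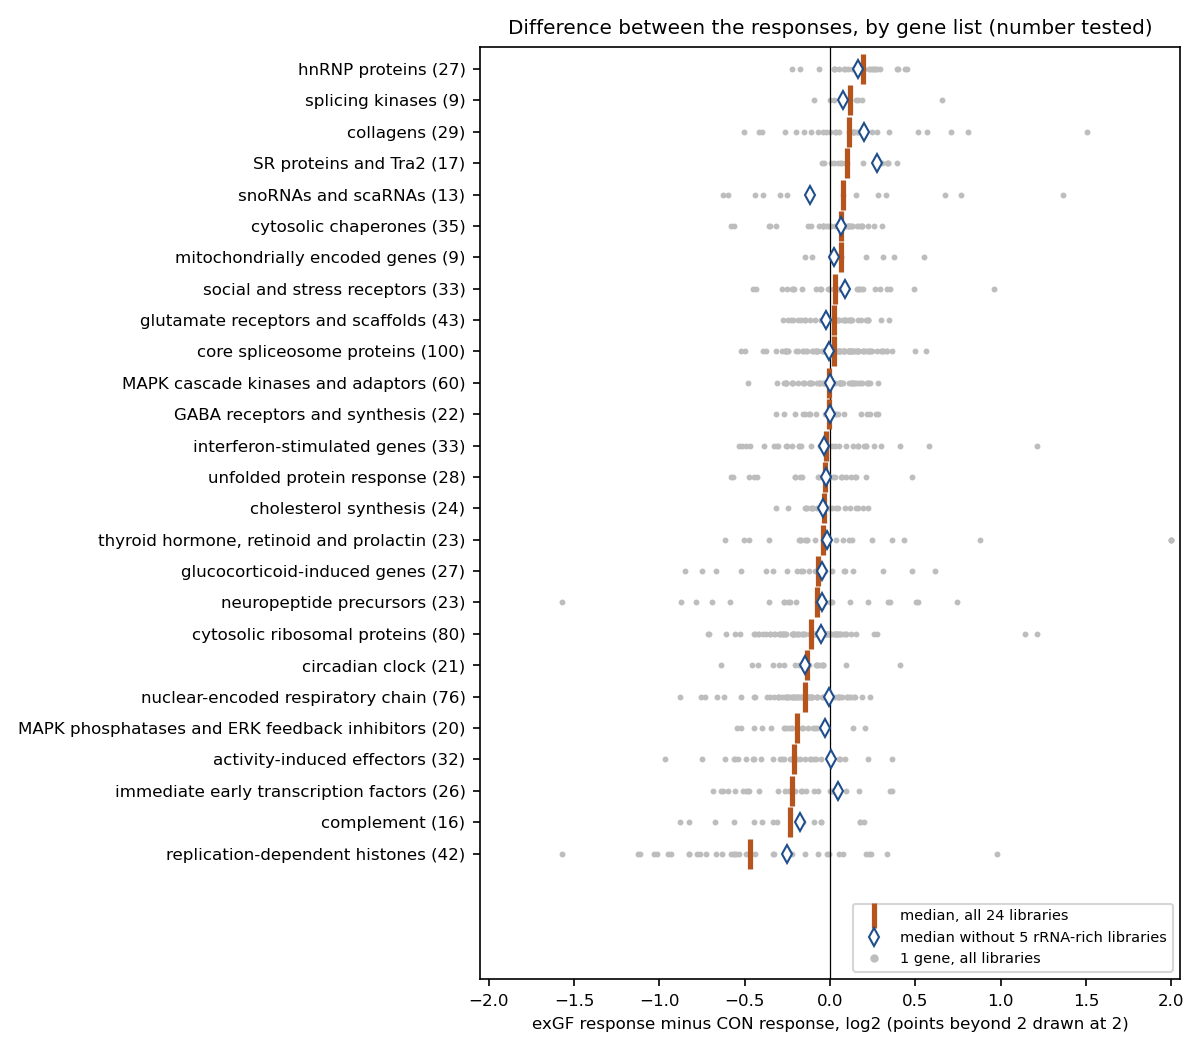
Each grey point is the difference between the exGF and the CON response of 1 gene on the log2 scale, by gene list with the number tested; bars are medians over all 24 libraries and open diamonds are medians without the 5 libraries in which Gm42418 takes over 5% of the counts. The medians of immediate early transcription factors and effectors move from −0.22 and −0.21 to 0.05 and 0.01. Those of complement, histones and the circadian clock are among the medians that stay below 0.

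Choroid plexus markers had the largest median difference of the lists tested. All 10 were positive with a median of 3.09, and 7 had an unadjusted p below 0.05, against 5.83% of all genes. Ttr, the thyroxine carrier that this tissue secretes, was at 25.6, 264, 78.8 and 31.8 CPM in CON, from 24.8 to 63.3 CPM in CON-SI and at 22.2, 11.9, 32.4 and 34.6 CPM in exGF. In exGF-SI its median was 49.9 CPM and its highest value 1347 CPM, in exGF-S9. Its difference was 5.35 (2.13 to 8.57, edgeR adjusted p = 0.719). With the mean level of these same 10 markers as a covariate the median of the list was 0.24. That fall was built in, as the covariate is made of the list itself. Oligodendrocyte markers had a median difference of −0.42, with 0 of 10 positive, and their summed level ran from 928 to 3860 CPM in CON-SI and from 1239 to 3606 CPM in exGF-SI. The part of tissue composition in the other differences was not tested.

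Receptors and transmitter systems gave differences near those of all genes. The medians were 0.02 for 43 glutamate receptor and scaffold genes, −0.01 for 22 genes of GABA receptors and synthesis, and 0.03 for 33 social and stress receptors. With 1 library left out the last of these lay between −0.04 and 0.12. All 43 glutamate genes had an interval within −1 and 1. The somatostatin receptor gene Sstr2 rose by 0.62 in CON with an exGF estimate of 0.19, and had a difference of −0.43 (−0.83 to −0.03). Somatostatin itself fell by 0.54 in exGF with an estimate of −0.26 in CON, and had a difference of −0.27 (−0.70 to 0.15). Pcsk1n, a neuropeptide precursor and protease inhibitor, fell by 1.46 in exGF, and had a difference of −1.57 (−3.06 to −0.09). Interferon-stimulated genes had a median difference of −0.02 over 33 genes. Genes of cholesterol synthesis had a median of −0.04 and collagens one of 0.11, which lay between −0.01 and 0.21 with 1 library left out.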

How the data were processed

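RNA was sequenced from the amygdala of CON and exGF mice, naïve or after social interaction, and GF libraries entered the fit for the dispersion alone. The deposited values are counts: per the labels and methods, the authors trimmed reads with Trimmomatic 0.32, aligned them with STAR 2.4.0f1 to GRCm38.p3 and counted read pairs per Ensembl gene with HTSeq 0.6.0 without regard to strand, and no scaling was applied. Symbols and positions came from GENCODE vM21, with 42462 of 43629 genes matched.

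Groups follow the column names, whose numbers differ from those in the sample titles. Any pair of libraries in a group differed by more than counting noise (chi-square over its degrees of freedom of at least 7.21), and none was treated as a repeat. Replicates are separate pools or animals. Counts were fitted with edgeR 4.0.16 in R 4.3.3 (quasi-likelihood F-test, TMM scaling, filterByExpr, 6 groups in 1 fit), with BH adjustment and a threshold of 0.1. The response difference was the contrast of 4 groups, and CPM values are TMM-scaled. Alternatives were DESeq2 1.42.0, RLE scaling, no filter, the 24 libraries alone, robust dispersion, limma 3.58.1 with quality weights, leaving out libraries over 5% Gm42418, 2 covariates, each library left out, and a filter of 0.5 on the log2 scale. The fit was tried on simulated counts with known changes. Libraries held 10271854 counts or more. For genes at a few CPM, such as 2810403D21Rik and Gpr4, counting error need not be small beside the spread between libraries.

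The members and gene lists were chosen with earlier results of these data known. Genes named were the 8 with the smallest p in each direction with a mean of at least 1 CPM, since none passed, up to 4 of each list by p, and genes named in the study's paper, of which not every one is given; other names in counts of 5 or fewer were added after their values were seen. Figures were drawn with matplotlib 3.10.9.

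1 gene that the rule would name is not reported here.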

Additional observations from a re-analysis of the deposited data

Results flagged for a closer look

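Of 276 combinations of a named gene and a group, 26 held a library whose gap to its nearest neighbour was above Dixon's 95% critical value for the group, where chance gives about 13.8. No difference between the responses passed a test, so none is listed on that ground.

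In naïve CON, CON-P1 stood apart for Hnrnpu (121 CPM), Hspa8 (1284 CPM), Hspa4 (324 CPM) and C1qc (4.50 CPM), and it is also the library with the largest share of Gm42418. CON-P4 stood apart for Glo1 (63.4 CPM) and Hnrnpll (35.0 CPM), below the other 3 libraries both times. In naïve exGF, exGF-P1 was high for Hnrnpll (43.1 CPM) and exGF-P2 low for Srsf1 (10.5 CPM). In CON-SI, CON-S2 was high for Kcnj16 (10.6 CPM), CON-S5 for Glo1 (73.7 CPM) and C1qa (25.7 CPM), CON-S10 for Hist1h4b (7.31 CPM), CON-S7 for Gm42418 (12870 CPM), and CON-S3 for Gm10800 (1058 CPM) and Gm26870 (65.9 CPM).

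In exGF-SI, exGF-S5 was high for Kcnj16 (13.0 CPM) and Sos1 (109 CPM), and exGF-S8 for Ier5 (73.1 CPM), Bdnf (117 CPM) and Dnajb6 (160.3 CPM). exGF-S10 was high for Hnrnpll (56.5 CPM) and Hnrnpu (226 CPM) and low for Hist1h2bg (6.48 CPM). exGF-S4 was low for Glo1 (42.5 CPM) and high for Gm10800 (1.60 CPM), and exGF-S7 was high for Gm42418 (110800 CPM). The causes were not tested.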

How the results depend on the processing

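The count of genes whose responses differed was 0 and became 1, with a positive difference, under DESeq2, limma with quality weights and the choroid plexus covariate, where the gene was Kcnj16 (adjusted p = 0.013, 0.041 and 0.084). It was 0 under RLE scaling, no filter on low counts, the 24 libraries alone, robust dispersion, the ribosomal RNA covariate, the filter of 0.5 and without the 5 libraries rich in ribosomal RNA. With each library left out it lay between 0 and 1 in all and among positive differences, and at 0 among negative ones. The gene called was Kcnj16 without CON-P4, CON-S2, exGF-S7 or exGF-S8, and Glo1 without CON-S5. The CON response had 115 genes without the 5 libraries and 456 to 1298 with 1 library left out, the exGF response 491 and 533 to 1539, and limma called 2608 genes in exGF. The run without the 5 libraries also has fewer naïve libraries in both groups. The sign of a difference turned without the 5 libraries for Fosb (0.050), Fos (0.58), Ier5 (0.0086), Sik1 (0.0098), Arc (0.050), Dusp6 (0.034), Dnajb6 (0.12), Cirbp (−0.072) and Gm42418 (−2.07, from 4.47). It also turned for Fos under limma (0.047), for Cirbp with the choroid plexus covariate (−0.073), and for Bdnf under DESeq2 (−0.0056), RLE scaling (−0.0018), no filter (−0.0092), the 24 libraries (−0.0024) and limma (−0.064). With 1 library left out Fos lay between −0.38 and 0.14, Bdnf between −0.13 and 0.069, Dnajb6 between −0.074 and 0.031, Cirbp between −0.059 and 0.096 and Gm42418 between −0.75, without exGF-S7, and 6.55. The causes were not tested. No paired analysis was possible because the column numbers are not those of the labels and pools stand against single animals. With 4 naïve libraries a group, the median half-width of 0.40 holds for a single gene before adjustment. Passing after adjustment over 16111 genes took more: Kcnj16, with a difference of 1.48 and a standard error of 0.29, did not pass.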
